A study of Mus musculus with 9 samples.

Results

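Interferon-stimulated genes were followed through mouse granulosa cells taken after cyclophosphamide, with and without hydroxychloroquine. The set is a list of 38 genes found by symbol, chosen with earlier results of these data known. All 38 were found in the deposited table of 56748 gene identifiers. Of these, 34 reached 1 FPKM in at least 3 of the 9 libraries and were tested among 14431 genes. FPKM is a read count divided by gene length and library size, so it can be set side by side between genes.

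Granulosa cells, the somatic cells that surround the oocyte, came from wild-type female C57BL/6 mice in 3 groups of 3 libraries, named here by group and replicate. Control mice are called vehicle in the design text and untreated in the labels. CTX mice received cyclophosphamide, an alkylating drug, at 120 mg per kg, to model premature ovarian failure. CTX_HCQ mice received the same injection plus oral hydroxychloroquine, a drug that accumulates in lysosomes, at a daily 40 mg per kg; the oral doses began 7 days ahead of cyclophosphamide and went on for 4 weeks afterwards. The ages of the mice, and whether a library is 1 mouse or a pool, are not given in the sources used here, so the spread between libraries may be partly technical. The study's title points to granulosa cell senescence and to cGAS as a sensor of mitochondrial DNA, a pathway whose output includes type I interferon.

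As background, cells that sense foreign or misplaced nucleic acid produce type I interferons, which bind a receptor on the same and neighbouring cells. The receptor's kinases activate transcription factors, among them STAT2 with IRF9, which bind a DNA element, the interferon-stimulated response element (ISRE), in front of responding genes. The products bind, edit or degrade viral RNA, tag proteins with ISG15, attack the vacuoles of intracellular microbes and recruit lymphocytes. Interferon gamma acts through a second element, GAS, and drives several of the GTPase genes. In cells without infection many of these genes are kept at a low basal level.

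The reads recovered from the FPKM totalled 13898190 to 17751095 per library. The summed level of 11 granulosa cell markers lay between 4500 and 7590 FPKM in every library, which fits the label. CTX 3 stood apart: mitochondrial transcripts took 28.9% of its FPKM against 11.7% to 17.5% elsewhere, and it held 339 FPKM of the oviduct gene Ovgp1. Ovgp1 was not confined to CTX 3. It stood at 91 and 44.4 FPKM in CTX 1 and CTX 2, and at 55.5, 4.01 and 1.01 in Control 1 to 3. In CTX_HCQ 1 to 3 it stood at 4.69, 4.9 and 11.3, below every CTX library. Differences were tested with limma on log2(FPKM + 1), a scale that understates the change of low genes, with Benjamini-Hochberg adjustment over all tested genes and a threshold of 0.05. No gene passed in any of the 3 comparisons, so 0% of tested genes were called in each, and no member was called. At an unadjusted p under 0.05 stood 1126 genes for CTX vs Control, 785 for CTX_HCQ vs CTX and 312 for CTX_HCQ vs Control. Members are therefore described by their values, and "higher" and "lower" state the sign of a difference, not a call.

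The promoters of the members were searched for the letters of the ISRE and GAS elements. The RefSeq promoter table (GRCm38.p6, 250 bases before to 50 after each start) held 28 of the 38 members. It lacked Iigp1, Usp18, Rtp4 and Ifi27l2a, among others. The ISRE core GAAANNGAA, searched on both strands, occurred in 20 of these 28 (71.4%) and in 9.76% of the 27025 genes of the table (8.56% of its 32851 promoters). The GAS pattern TTCNNNGAA occurred in 7 of the 28 (25%) and in 9.55% of genes (8.3% of promoters). A match describes letters and is not a shown binding site. The stretches below come only from members with a core. They lie upstream of the start on the gene's own strand, 5′ to 3′, with every base of an ISRE core match in capitals. Cores overlap in tandem in Isg15, Bst2, Ifit1 and Gbp3, and in the IFIT genes and Gbp3 they lie on the opposite strand, so the printed strand shows the reverse complement.

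Isg15, chr4:156200859-156200928, minus strand: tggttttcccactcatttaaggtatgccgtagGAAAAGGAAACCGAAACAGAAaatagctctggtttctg
Ifit1, chr19:34640759-34640828, plus strand: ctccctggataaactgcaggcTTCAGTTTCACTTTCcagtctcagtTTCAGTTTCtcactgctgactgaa
Ifit3, chr19:34583364-34583453, plus strand: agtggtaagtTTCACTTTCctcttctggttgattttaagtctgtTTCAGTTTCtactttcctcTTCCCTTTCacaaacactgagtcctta
Ifit3b, chr19:34607760-34607849, plus strand: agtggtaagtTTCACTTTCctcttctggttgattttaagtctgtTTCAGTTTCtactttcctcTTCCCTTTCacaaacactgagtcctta
Gbp3, chr3:142559964-142560033, plus strand: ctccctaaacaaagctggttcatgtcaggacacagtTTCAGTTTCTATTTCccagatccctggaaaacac
Bst2, chr8:71537563-71537632, minus strand: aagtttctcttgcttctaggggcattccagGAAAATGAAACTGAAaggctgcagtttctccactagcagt

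The Ifit3 and Ifit3b stretches were identical at 90 of 90 bases, although the outermost core begins at base -155 from the start in Ifit3 and at -187 in Ifit3b. Over the 268 bases that their promoter windows share at that shift, 201 (75%) were identical. The 2 genes are near-identical copies, so their reads may have been split between them by the authors' counting, and each level is uncertain on its own. A match to the ISRE core did not sort the members by their difference between CTX and Control: 13 of 18 tested members with a core were higher in CTX (median log2 0.32), and 7 of 8 without one (median 0.31). A member without an exact match in this window may still have an ISRE, so the split cannot show whether the element matters.

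Across the 34 tested members, the levels stood higher in CTX than in Control for 27 genes and lower for 7, with a median log2 difference of 0.34. Over all tested genes 49.5% were higher, and the median was 0. The gap was widest for Isg15, Ifit1, Ifit3, Gbp3, Iigp1 and Cxcl10, at 2.09 to 3.13 times the Control level by mean FPKM. By contrast, the RNA sensors and the PARP9 and DTX3L pair stayed near or below Control. At an unadjusted p under 0.05, 8 members were higher and 0 lower, against 3.60% and 4.20% of all tested genes, and the adjusted p-values (limma) of the members lay between 0.639 and 0.975. In 9 members every CTX library exceeded every Control library, against 8.72% of tested genes, and in 0 members every CTX library lay below, against 11.0%. Both the 8 and the 9 include Ifit3b and Cxcl10, which reached 1 FPKM only in treated libraries, as did Oas2 among the 27. Such members entered the test only by standing high there, so their place in these counts carries no weight. Without CTX 3 the members gave 27 higher, a median of 0.23, 5 at an unadjusted p under 0.05 against 4.72% of tested genes, and 10 without overlap against 15.4% of tested genes. Bulk RNA cannot tell more RNA per cell from more cells of a type that expresses a gene.

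Adding hydroxychloroquine went with lower levels in most members. Between CTX_HCQ and CTX, 29 members were lower and 5 higher, with a median log2 difference of -0.20, where 52.1% of all tested genes were higher. Only Ifi27l2a reached an unadjusted p under 0.05, on the lower side, against 3.60% of tested genes lower and 1.84% higher. Ifi27l2a, Irgm1 and Irf9 were lower without overlap of libraries, against 4.57% of tested genes, and 0 members were higher without overlap, against 3.45%. The adjusted p-values of the members ran from 0.906 to 0.997. CTX_HCQ and Control lay close together, with 22 members higher and 12 lower, against 48.1% of genes higher, and a median of 0.06. Here Ifit3 and Gbp3 were higher at an unadjusted p under 0.05, against 1.09% of tested genes higher and 1.07% lower. Isg15, Ifit1 and Iigp1 joined them among the 5 members higher without overlap, against 3.25%, and 0 were lower without overlap, against 3.06%. These 3 comparisons share libraries, so their results are not independent.

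**Figure D1:**
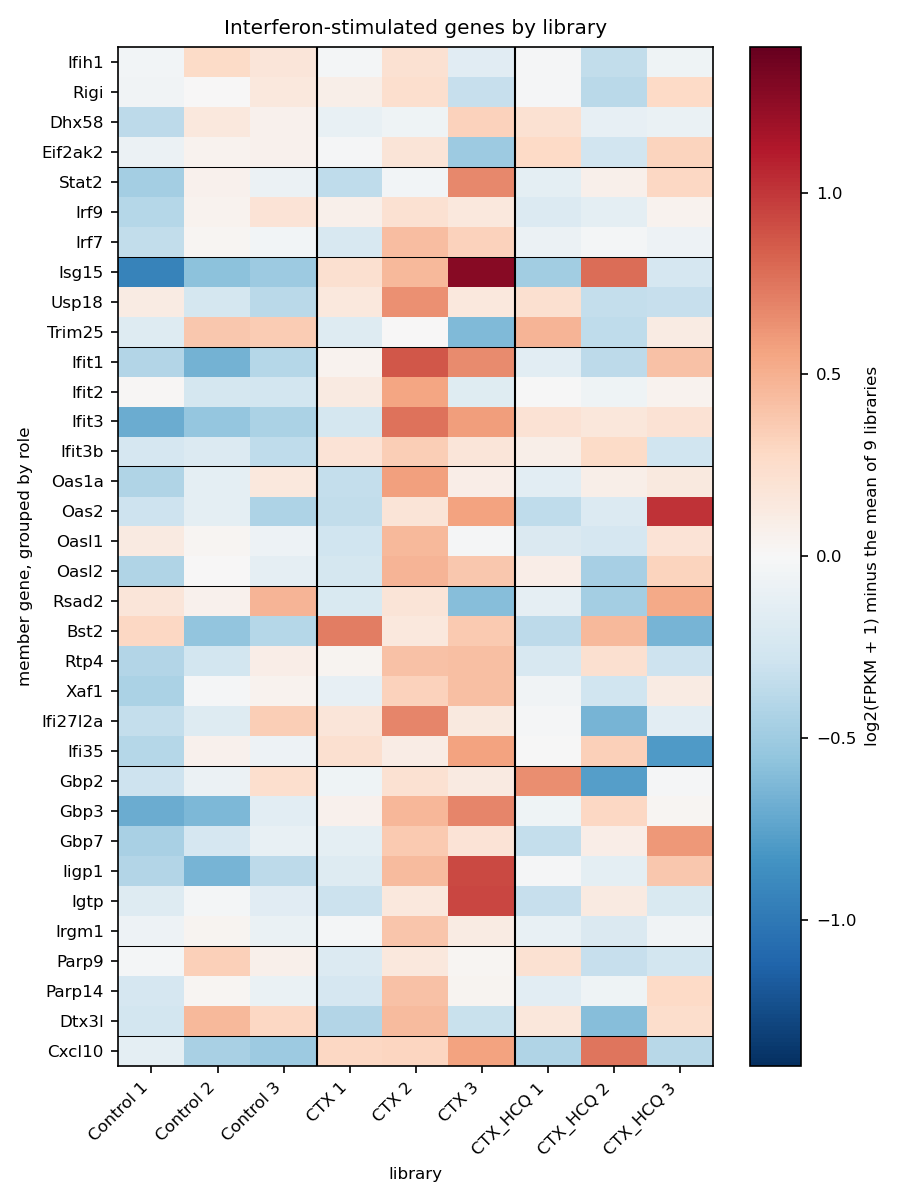
Level of each of the 34 tested members in each library, as log2(FPKM + 1) minus the mean of the 9 libraries (colour), with rows grouped by role and libraries grouped by treatment. CTX 2 and CTX 3 hold the highest level of 13 and 9 members, Control 1 the lowest of 11, and the red cells of CTX_HCQ 2 and CTX_HCQ 3 fall on different genes.

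The products of the IFIT genes bind viral RNA that lacks the marks of host messenger RNA. Of these genes, Ifit1 and Ifit3 were among the members furthest above Control, while Ifit2 (log2 0.33) lay near the members' median of 0.34. All 4 IFIT genes were higher in CTX (median log2 0.71) and all 4 lower in CTX_HCQ than in CTX (median -0.20). Ifit1 (ENSMUSG00000034459) held 1.75, 1.3 and 1.76 FPKM in Control 1 to 3, 2.78, 5.69 and 4.79 in CTX 1 to 3, and 2.29, 1.83 and 3.85 in CTX_HCQ 1 to 3. Every treated library thus exceeded every Control library, and the means were 1.6 ± 0.262 (SD, n = 3 here and below), 4.42 ± 1.49 and 2.66 ± 1.06. The log2 difference of Ifit1 was 1.02 (SE 0.26, 95% interval 0.43 to 1.61) for CTX vs Control and -0.56 (SE 0.26, interval -1.15 to 0.02) for CTX_HCQ vs CTX.

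Ifit3 held 2.23, 2.59 and 2.85 FPKM in Control, 3.41, 7.82 and 6.84 in CTX, and 5.01, 4.82 and 5 in CTX_HCQ. The CTX_HCQ libraries were nearly equal and all above Control, while CTX 1 lay closer to Control than to the other 2 CTX libraries. The log2 difference was 0.92 (SE 0.24) for CTX vs Control, -0.18 (SE 0.24) for CTX_HCQ vs CTX and 0.75 (SE 0.24) for CTX_HCQ vs Control. Its copy Ifit3b was much lower, at 0.677, 0.725 and 0.546 FPKM in Control, 1.25, 1.5 and 1.22 in CTX, and 1.09, 1.37 and 0.619 in CTX_HCQ. Its libraries rest on 18 to 51 reads. Ifit3b passed the filter on low values only through CTX and CTX_HCQ libraries, so it had to stand higher there. Ifit2 was low throughout, at 0.784 ± 0.192, 1.29 ± 0.58 and 0.988 ± 0.0723 FPKM.

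Within the ISG15 system, the modifier and its protease stood above Control in CTX and the ligase below. Isg15 (ENSMUSG00000035692), a small protein that is attached to other proteins and also secreted, held 2.68, 3.73 and 3.97 FPKM in Control, 7.27, 8.7 and 16.1 in CTX, and 4.03, 11.1 and 5.01 in CTX_HCQ. CTX and Control did not overlap, and CTX_HCQ 2 alone lay at the CTX level. The log2 difference of Isg15 was 1.33 (SE 0.35, interval 0.55 to 2.11) for CTX vs Control, which was the widest of all members, and 1.02 without CTX 3. For CTX_HCQ vs CTX it was -0.64 (SE 0.35), which became -0.33 without CTX 3 and -1.02 without CTX_HCQ 2.

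Usp18, which removes ISG15 and damps the receptor, held 2.05, 1.38 and 1.17 FPKM in Control, 2.13, 3.41 and 2.14 in CTX, and 2.31, 1.25 and 1.26 in CTX_HCQ. The groups CTX and Control were separated by a small margin only, 2.13 against 2.05. Trim25, a ubiquitin ligase that also attaches ISG15 and activates RIG-I, held 14.3, 21.5 and 21.1 FPKM in Control, 14.2, 16.3 and 10.3 in CTX, and 23.1, 12.5 and 17.7 in CTX_HCQ. Its log2 differences of -0.45 (SE 0.26) for CTX vs Control and 0.35 (SE 0.26) for CTX_HCQ vs CTX had the opposite signs to those of Isg15, with overlapping libraries.

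**Figure D2:**
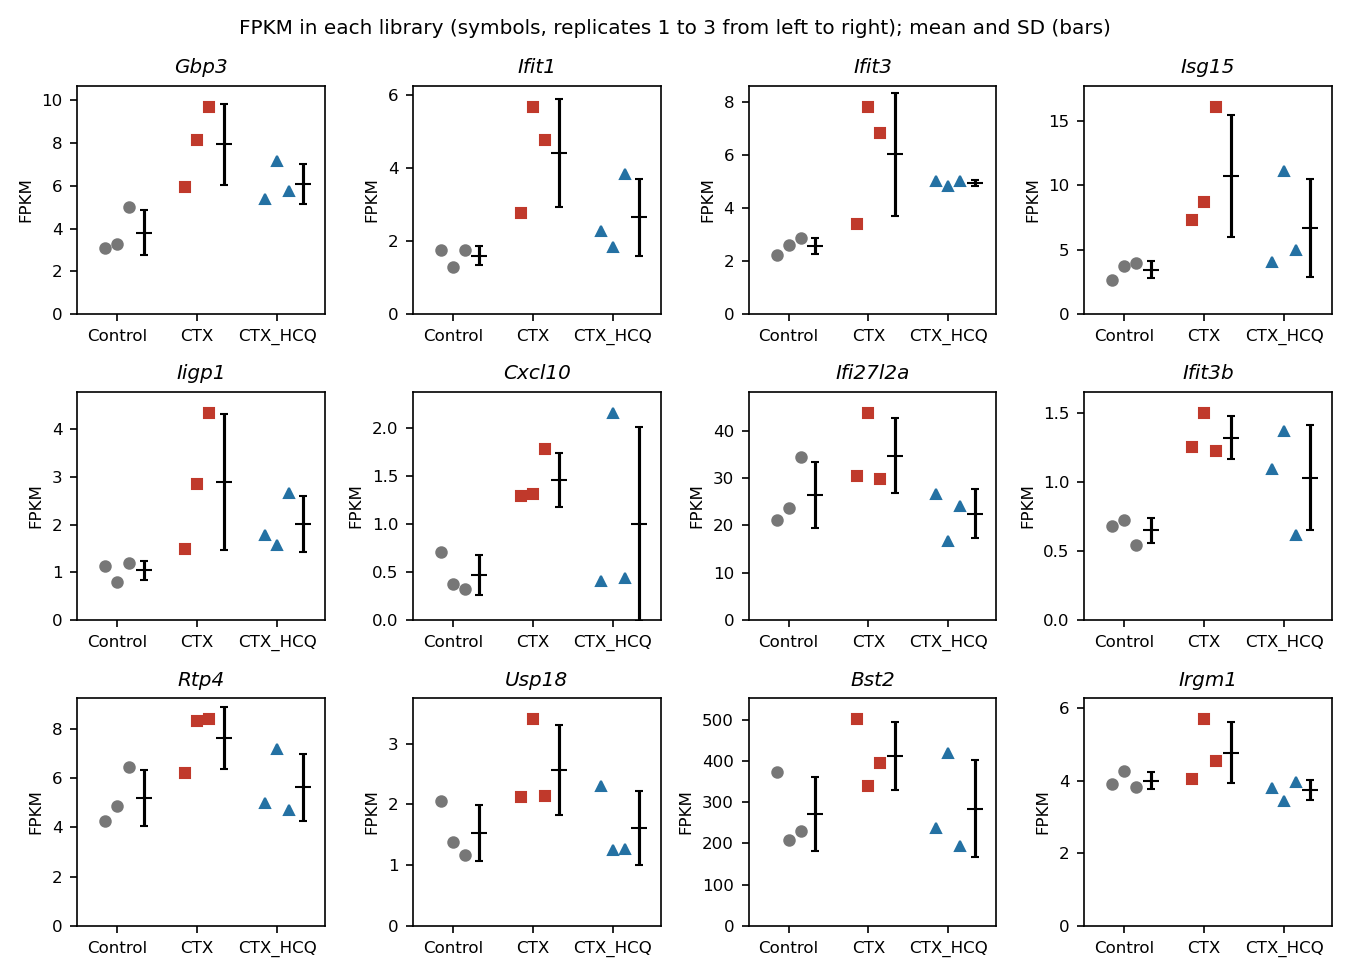
FPKM (y axis, from 0) of the 12 members with the smallest unadjusted p in any comparison, by group (x axis); symbols are libraries 1 to 3 from left to right, and bars are the mean ± SD of 3 libraries. Control and CTX separate for Gbp3, Ifit1, Ifit3, Isg15, Iigp1, Cxcl10, Ifit3b and Usp18, and CTX_HCQ overlaps CTX in all panels but Ifi27l2a and Irgm1.

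The interferon-inducible GTPases, which coat and break pathogen vacuoles, were higher in CTX than in Control in 6 of 6 members (median log2 0.40) and lower in CTX_HCQ than in CTX in 6 of 6 (median -0.30). Gbp3 (ENSMUSG00000028268), a guanylate-binding protein, held 3.1, 3.29 and 5.02 FPKM in Control, 5.95, 8.16 and 9.7 in CTX, and 5.36, 7.15 and 5.77 in CTX_HCQ. Every library of both treated groups exceeded every Control library, with a log2 difference of 0.89 (SE 0.22, interval 0.41 to 1.38) for CTX, the smallest unadjusted p among the members (0.00212, adjusted p 0.639 in limma). For CTX_HCQ vs Control it was 0.58 (SE 0.22). Iigp1, an immunity-related GTPase on chromosome 18, held 1.13, 0.804 and 1.19 FPKM in Control, 1.5, 2.85 and 4.35 in CTX, and 1.79, 1.57 and 2.67 in CTX_HCQ. Its log2 difference for CTX vs Control was 0.87 (SE 0.28), and 0.61 without CTX 3, the library in which it was highest.

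The remaining GTPases overlapped between CTX and Control. Gbp2 was the most abundant, at 24, 28 and 35.1 FPKM in Control, 28.3, 34.6 and 32.4 in CTX, and 47.3, 16.9 and 29.3 in CTX_HCQ, where the highest and the lowest of all 9 libraries fell in 1 group. Irgm1, which regulates the other immunity-related GTPases, held 3.9, 4.27 and 3.83 FPKM in Control, 4.05, 5.7 and 4.55 in CTX, and 3.79, 3.45 and 3.97 in CTX_HCQ. CTX_HCQ lay wholly below CTX for Irgm1, by a log2 difference of -0.28 (SE 0.16). Gbp7, of which 11.3% of exon bases are shared with another gene model, stood at 1.77 ± 0.331, 2.69 ± 0.626 and 2.74 ± 1.22 FPKM, and Igtp at 6.18 ± 0.431, 8.98 ± 4.43 and 6.15 ± 1.19. The SD of Igtp in CTX came from CTX 3, at 13.9 FPKM, against 5.35 and 7.68 in the other 2.

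The OAS genes make or resemble the synthetases of the short adenylate chains that switch on RNase L. All 4 tested members were nominally higher in CTX than in Control (median log2 0.31), and none was separated from Control. Oasl2 was the most abundant, at 5.31, 7.45 and 6.73 FPKM in Control, 6.1, 10.7 and 9.96 in CTX, and 8.02, 5.1 and 9.43 in CTX_HCQ, so all groups overlapped. Oas1a stood at 1.84 ± 0.551, 2.44 ± 1.08 and 2.14 ± 0.31 FPKM, and Oasl1 at 0.969 ± 0.135, 1.05 ± 0.54 and 0.835 ± 0.316. Oas2 stood at 0.581 ± 0.165, 1.18 ± 0.663 and 1.36 ± 1.33, with 2.88 in CTX_HCQ 3 alone, and passed the filter only through treated libraries. Oas3 was not tested, since it did not exceed 0.3 FPKM in any library.

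Among the other antiviral effectors, Bst2 (tetherin), a membrane protein that holds budding virions on the cell, was far the most abundant member. It held 373, 209 and 231 FPKM in Control, 502, 338 and 395 in CTX, and 238, 419 and 195 in CTX_HCQ, from 2707 to 7626 reads. Control 1 exceeded CTX 2, and CTX_HCQ 2 exceeded CTX 2 and CTX 3, so neither comparison was free of overlap. The log2 difference of Bst2 was 0.63 (SE 0.36) for CTX vs Control and -0.59 (SE 0.36) for CTX_HCQ vs CTX; without CTX_HCQ 2 the latter was -0.91, and without CTX_HCQ 3 it was -0.36.

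Ifi27l2a, a small interferon-inducible protein, held 21.2, 23.6 and 34.5 FPKM in Control, 30.4, 43.8 and 29.7 in CTX, and 26.6, 16.8 and 24.2 in CTX_HCQ. It was the member with the smallest unadjusted p for CTX_HCQ vs CTX (0.0415, adjusted p 0.906 in limma), with a log2 difference of -0.60 (SE 0.26). Its CTX_HCQ mean of 22.5 ± 5.1 lay below the Control mean of 26.4 ± 7.05 as well, by less than either SD. Rtp4, a receptor transporter protein with antiviral activity, held 4.26, 4.86 and 6.46 FPKM in Control, 6.19, 8.31 and 8.4 in CTX, and 4.98, 7.19 and 4.71 in CTX_HCQ. Its log2 difference was 0.48 (SE 0.21) for CTX vs Control, with an overlap of Control 3 and CTX 1, and -0.39 (SE 0.21) for CTX_HCQ vs CTX. Another gene model on the same strand shares 13.9% of the exon bases of Rtp4.

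Ifi35, a protein that pairs with NMI, stood at 9.3 ± 1.64, 12.9 ± 2.35 and 9.65 ± 3.92 FPKM in Control, CTX and CTX_HCQ, and CTX did not overlap Control. An antisense gene covers 16.8% of the Ifi35 exons, and whether the counting used strand is not stated in the sources. Xaf1, a proapoptotic factor, stood at 1.58 ± 0.458, 2.29 ± 0.611 and 1.69 ± 0.369. Rsad2 (viperin), an enzyme that makes a chain-terminating nucleotide, went the other way, at 1.17 ± 0.328, 0.619 ± 0.432 and 0.879 ± 0.683 FPKM, with a log2 difference of -0.45 (SE 0.31) for CTX vs Control, as low as that of Trim25. It spanned 0.211 FPKM in CTX 3 to 1.64 in CTX_HCQ 3. Mx1, Mx2 and Ifi44 were not tested: Mx1 did not exceed 0.401 FPKM, Mx2 exceeded 1 only in CTX 3 (1.15) and CTX_HCQ 3 (1.08), and Ifi44 did not reach 1 in any library.

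Cxcl10, a chemokine that attracts T cells, held 0.706, 0.371 and 0.323 FPKM in Control, 1.29, 1.31 and 1.78 in CTX, and 0.402, 2.16 and 0.434 in CTX_HCQ, from 12 to 85 reads. CTX did not overlap Control (log2 difference 0.75, SE 0.32). In CTX_HCQ, 2 libraries lay at the Control level and CTX_HCQ 2 above every CTX library, so the group mean of 0.998 ± 1.01 describes none of them. Cxcl10 too passed the filter only through the treated groups, so it had to stand higher there.

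The RNA sensors, which trigger interferon production or halt translation on viral RNA, showed no common direction. Of the 4, 1 was higher and 3 lower in CTX than in Control (median log2 -0.08). Eif2ak2 (PKR), the most abundant, held 4.1, 4.58 and 4.61 FPKM in Control, 4.31, 5.09 and 2.79 in CTX, and 5.52, 3.46 and 5.68 in CTX_HCQ. Rigi (RIG-I) stood at 3.5 ± 0.322, 3.44 ± 0.841 and 3.36 ± 0.975 FPKM. Ifih1 (MDA5) stood at 2.03 ± 0.322, 1.78 ± 0.363 and 1.5 ± 0.29, and Dhx58 (LGP2) at 1.14 ± 0.388, 1.3 ± 0.391 and 1.21 ± 0.292. The 95% interval of the CTX vs Control difference was -0.51 to 0.44 for Rigi and -0.55 to 0.30 for Ifih1, which leaves out a log2 difference of the size seen for Ifit1.

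The transcription factors that carry the signal were all slightly higher in CTX than in Control, by log2 differences of 0.20 to 0.30. Stat2 held 5.82, 8.89 and 7.94 FPKM in Control, 6.39, 8.26 and 14.1 in CTX, and 7.65, 8.93 and 10.6 in CTX_HCQ, with CTX 3 the highest. Irf9, the DNA-binding partner of STAT2, stood at 6.14 ± 1.44, 7.09 ± 0.385 and 5.87 ± 0.626 FPKM, and CTX_HCQ lay wholly below CTX (log2 difference -0.24, SE 0.18). Irf7, which amplifies type I interferon, stood at 3.38 ± 0.577, 4.45 ± 1.25 and 3.53 ± 0.0806.

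PARP9 and DTX3L act as a pair in ADP-ribosylation and ubiquitination, and PARP14 modifies proteins of the same pathway. Parp9 held 4.28, 5.78 and 4.64 FPKM in Control, 3.72, 4.98 and 4.47 in CTX, and 5.26, 3.32 and 3.5 in CTX_HCQ, with all groups overlapping. Dtx3l stood at 3.64 ± 1.12, 2.95 ± 1.37 and 3.01 ± 1.16, and Parp14 at 2.38 ± 0.303, 2.85 ± 0.868 and 2.69 ± 0.588. Parp9 and Dtx3l lie head to head and share 458 exon bases on opposite strands, and if the counting did not use strand, which is not stated, part of their reads cannot be told apart.

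**Figure D3:**
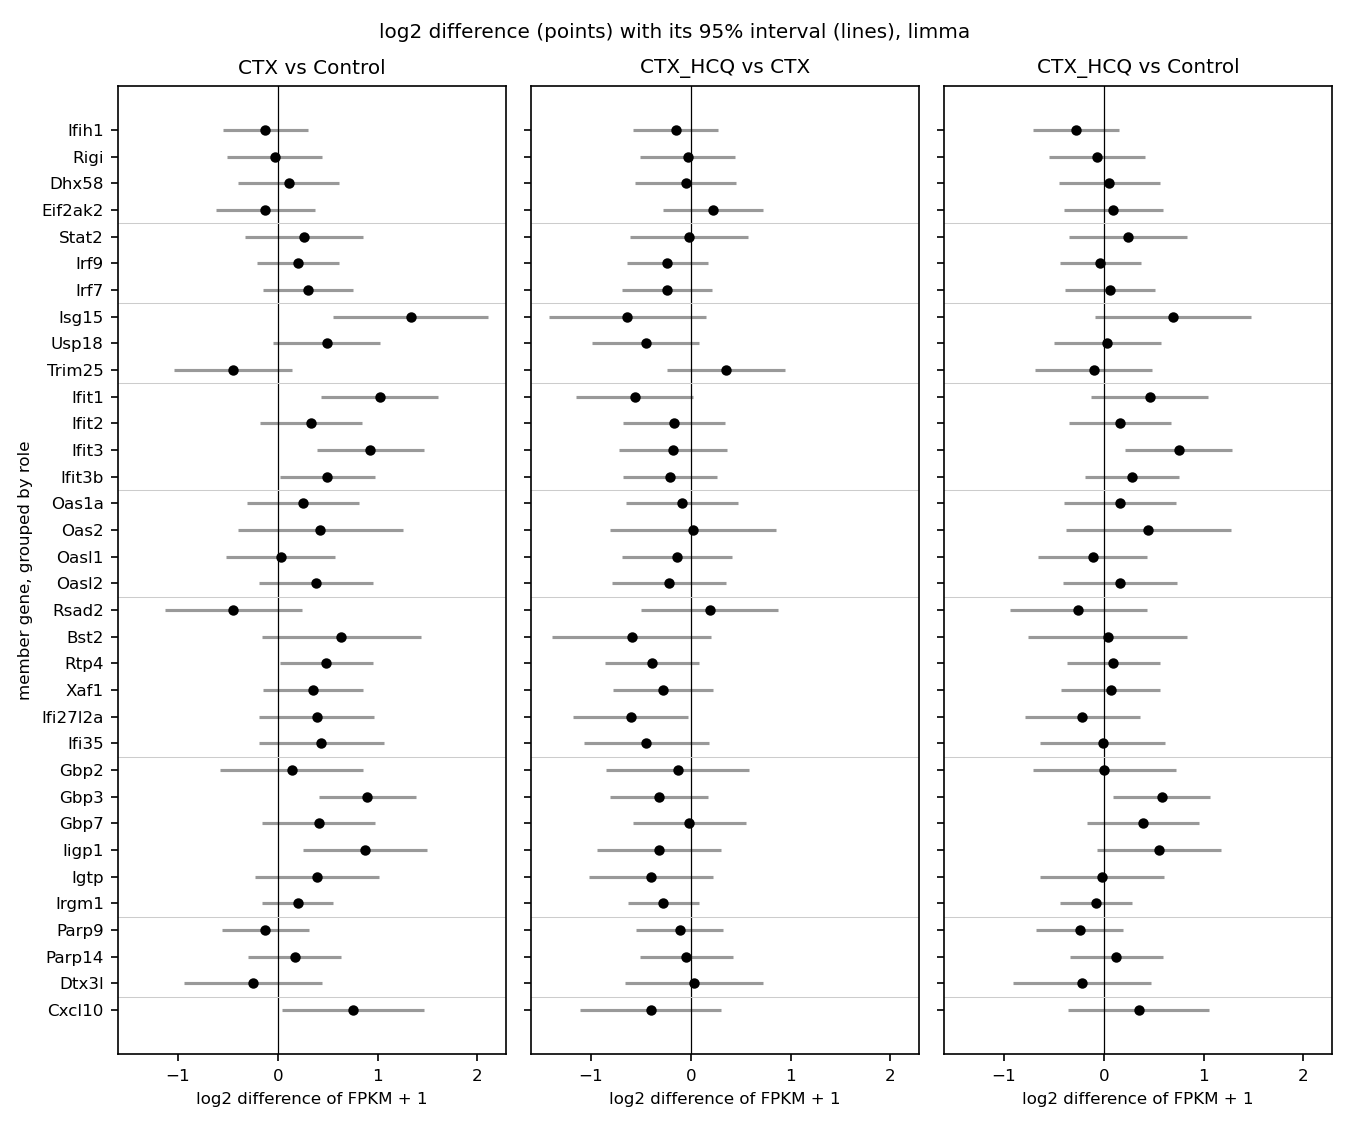
log2 difference of FPKM + 1 (x axis) of each tested member (rows, grouped by role) in the 3 comparisons, with the 95% interval from limma as lines. For CTX vs Control most points lie right of 0 and 8 intervals leave out 0; for CTX_HCQ vs CTX most lie left of 0 and only that of Ifi27l2a leaves it out.

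The members' levels also varied between libraries of 1 group. CTX 2 held the highest level of 13 members and was among the 3 highest libraries for 29, CTX 3 held the highest of 9, and CTX 1 of 1. The median level of the members relative to the mean of all libraries was -0.29, -0.02 and -0.08 in Control 1 to 3, -0.09, 0.36 and 0.18 in CTX 1 to 3, and -0.06, -0.14 and 0.05 in CTX_HCQ 1 to 3 (log2). CTX 1 thus lay within the Control range, and Control 1 was the lowest library. By group means on the log2 scale, CTX was the highest group for 25 members, against 35.8% of tested genes. CTX_HCQ lay between a lower Control and a higher CTX for 20 members, against 20% of tested genes.

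Gene length moved with these differences. The libraries differed in the level of short against long genes: all tested genes under 1 kb had a median log2 difference of 0.16 between CTX and Control, and those of 5 kb or longer -0.12. Among the members, the 17 shorter ones (below the members' median of 3851 bases) were higher in CTX in 17 of 17 cases (median 0.48). They were lower in CTX_HCQ than in CTX in 17 of 17 (median -0.39). The 17 longer ones were higher in CTX in 10 (median 0.20) and higher in CTX_HCQ than in CTX in 5 (median -0.05). Ifit3b and Cxcl10 among the shorter members and Oas2 among the longer passed the filter only through treated libraries. Their place in the counts against Control carries no weight. In CTX_HCQ, 0 of the 17 longer members had a higher level in CTX_HCQ 2 than in CTX_HCQ 3, against 9 of the 17 shorter ones. Over all tested genes, the short ones stood at 0.17 in CTX_HCQ 2 and -0.12 in CTX_HCQ 3, and the long ones at -0.11 and 0.16. With each library's trend on gene length removed, an alternative added after the data were seen, 28 members were higher in CTX (median 0.31) and 6 higher in CTX_HCQ than in CTX (median -0.20). For CTX vs Control, 3 members took the other sign. There 6 members, in place of 8, stood at an unadjusted p under 0.05 in limma, against 7.26% of tested genes. The log2 difference of Isg15, one of the shortest members at 703 bases, was then 1.13, and that of Iigp1, at 5823 bases, was 0.95.

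**Figure D4:**
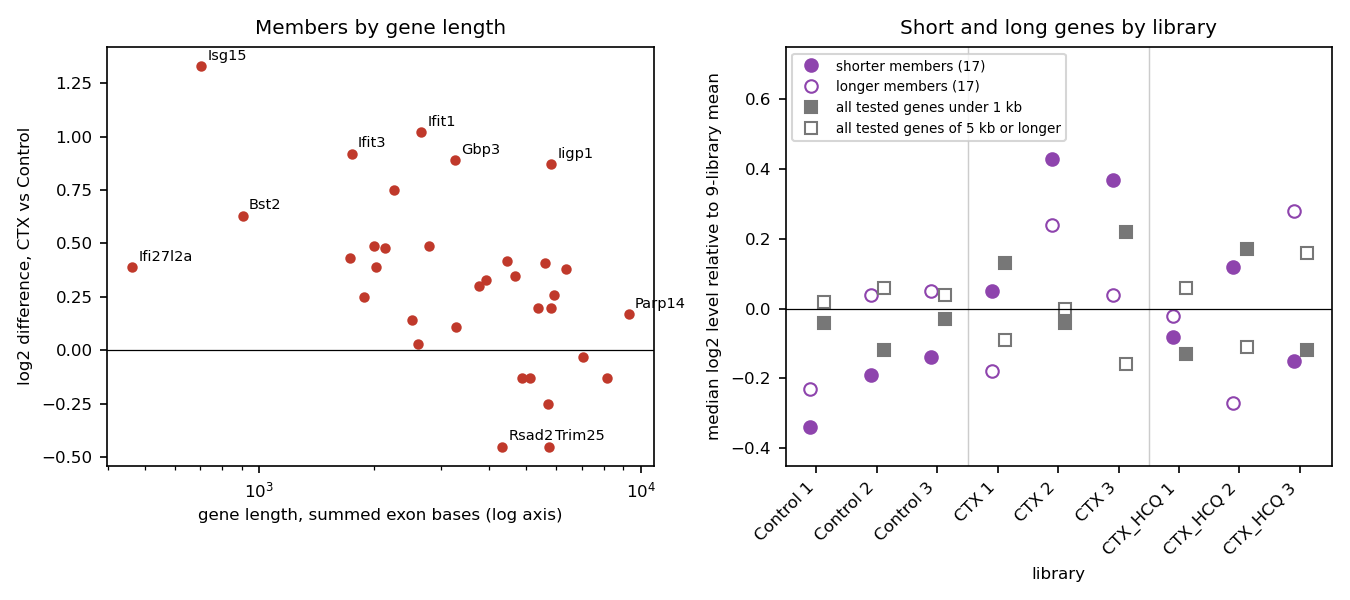
Left, log2 difference between CTX and Control (y axis) of each tested member against its summed exon length in bases (log axis). Right, median level relative to the mean of the 9 libraries (log2) of the 17 shorter and 17 longer members (circles) and of all tested genes under 1 kb or of 5 kb or longer (squares) in each library. The shorter members stand at 0.43 in CTX 2 and 0.37 in CTX 3, where all short genes stand at -0.04 and 0.22.

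Few reads were counted for the interferon genes themselves. Of 21 interferon genes in the table, 13 were listed at 0 in all 9 libraries and 0 passed the filter. Ifnb1 was seen with 1 read in CTX 3, and Ifng did not exceed 0.138 FPKM. The highest value was 1.25 FPKM for Ifnl3, a type III interferon, in Control 3, from 12 reads. A listed 0 need not mean that a gene is silent: Trex1, a broadly expressed DNA exonuclease gene, was also listed at 0 in all 9 libraries, and the Ifna genes are near-identical copies whose reads may be lost in counting. Levels below that of a few reads were not detectable at this depth.

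Genes that receive and limit the signal were expressed, and most differed little. Of 18 genes listed for receptors, kinases and inhibitors, 17 were tested. In CTX, 9 were higher and 8 lower than in Control (median log2 0.02). At an unadjusted p under 0.05 stood 1, against 7.80% of all tested genes. The type I receptor chains Ifnar1 and Ifnar2 had log2 differences of -0.32 (SE 0.20) and -0.22 (SE 0.20) in CTX, lower than Control in every library. Ifngr1 and Ifngr2, the interferon gamma receptor, had 0.19 (SE 0.20) and -0.14 (SE 0.19). The kinase genes Jak1 and Tyk2 had 0.09 (SE 0.24) and -0.04 (SE 0.25). Irf1, an interferon-induced transcription factor, had 0.23 (SE 0.17) for CTX vs Control.

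Socs1, the feedback inhibitor of JAK kinases, differed more than any member. It held 3.79, 2.2 and 1.69 FPKM in Control, 10.3, 13.5 and 5.21 in CTX, and 2.76, 4.8 and 2.67 in CTX_HCQ, with CTX apart from both groups. The log2 differences of Socs1 were 1.54 (SE 0.34, adjusted p 0.639 in limma) for CTX vs Control and -1.23 (SE 0.34, adjusted p 0.522) for CTX_HCQ vs CTX. Socs3, of the same family, had 0.63 (SE 0.36) and -0.64 (SE 0.36), and rested on 29.3 FPKM in CTX 2. SOCS genes also answer cytokines other than interferon.

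Of 23 genes that sense nucleic acid upstream of interferon, 16 were tested. In CTX, 11 were higher and 5 lower than in Control (median log2 0.03). An unadjusted p under 0.05 was reached by 0, against 7.80% of all tested genes. Cgas, the DNA sensor named in the title, held 1.58, 0.946 and 0.441 FPKM in Control, 0.937, 1.27 and 1.15 in CTX, and 0.745, 0.79 and 0.932 in CTX_HCQ. Control spanned the values of both other groups. Sting1, its adaptor, had log2 differences of 0.25 (SE 0.21) for CTX vs Control and -0.38 (SE 0.21) for CTX_HCQ vs CTX. Mavs, the adaptor of the RNA sensors, had -0.37 (SE 0.21) and 0.31 (SE 0.21), and Ifi207, a DNA-binding protein of the interferon-inducible PYHIN family, had 0.39 (SE 0.25) and -0.21 (SE 0.25). The kinase gene Tbk1 had 0.16 (SE 0.18) and 0.20 (SE 0.18), and the transcription factor gene Irf3 had 0.02 (SE 0.23) and 0.10 (SE 0.23).

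A wider list of 66 other interferon-stimulated genes, of which 54 were tested, gave medians of the same sign as the members for the first 2 comparisons only. For CTX vs Control 34 were higher and 20 lower (median log2 0.10), with 3 higher (Ly6a, Ifitm1 and Tgtp2) and 1 lower (Tor3a) at an unadjusted p under 0.05, against 3.60% and 4.20% of tested genes. Without overlap of libraries 9 were higher and 1 lower, against 8.72% and 11.0%. For CTX_HCQ vs CTX 19 were higher and 35 lower (median -0.14), with 8 lower and 0 higher at that level, against 3.60% and 1.84% of tested genes. Without overlap 10 were lower and 1 higher, against 4.57% and 3.45%. For CTX_HCQ vs Control 22 were higher and 32 lower (median -0.04), where the members had 22 of 34 higher. Ifitm1, a membrane protein that blocks virus entry, held 10.3, 4.74 and 4.16 FPKM in Control, 11.3, 8.49 and 16.8 in CTX, and 3.53, 5.96 and 2.98 in CTX_HCQ. All CTX libraries exceeded all CTX_HCQ libraries, by a log2 difference of -1.35 for CTX_HCQ vs CTX (SE 0.35, adjusted p 0.499 in limma). Ifitm2, its neighbour in the family, held 135, 148 and 150 in Control, 182, 134 and 225 in CTX, and 120, 46.5 and 88.9 in CTX_HCQ, and lay below both other groups in CTX_HCQ.

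Ly6a, a surface antigen of endothelial and lymphoid cells among others, held 11.3, 6.47 and 7.95 FPKM in Control, 22.3, 21.5 and 16.6 in CTX, and 8.06, 15.8 and 12.5 in CTX_HCQ, with CTX above both. Ccl5, a chemokine of T cells and macrophages, had the reverse order of Control and CTX. It held 4.48, 5.28 and 3.41 FPKM in Control, 3.53, 2.51 and 3.04 in CTX, and 1.57, 2.2 and 1.09 in CTX_HCQ, the lowest group, with log2 differences of -0.41 (SE 0.22) for CTX vs Control and -0.63 (SE 0.22) for CTX_HCQ vs CTX.

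Markers of other cell types were detected in all groups. The summed FPKM of 14 macrophage markers was 155 to 226 in Control, 202 to 258 in CTX and 162 to 292 in CTX_HCQ. That of 11 endothelial markers was 41.5 to 110, 73.3 to 138 and 51.3 to 130, and that of 10 oviduct epithelium markers 33.7 to 120, 114 to 445 and 44.5 to 54.9. By marker, 8 of 8 tested oviduct genes were higher in CTX than in Control (median log2 1.21). Of these, 6 stood at an unadjusted p under 0.05, against 3.60% of all tested genes higher. Between CTX_HCQ and CTX, 7 of 8 were lower (median -1.41), 6 of them without overlap, against 4.57% of all tested genes. Of 10 tested endothelial markers, 10 were higher in CTX (median 0.83) and 8 lower in CTX_HCQ than in CTX (median -0.44). These have the signs of the members' medians, 0.34 and -0.20, and are larger. Of 12 tested macrophage markers, 9 were higher in CTX (median 0.13) and 8 lower in CTX_HCQ than in CTX (median -0.06). Other lists went otherwise. Of 10 tested theca and stroma markers, 4 were higher and 6 lower in CTX than in Control (median -0.30). Between CTX_HCQ and CTX, 8 of these 10 were higher and 2 lower (median 0.15). Of 7 tested lymphocyte markers, 2 were higher and 5 lower in CTX than in Control (median -0.28). Between CTX_HCQ and CTX, 3 of these 7 were higher and 4 lower (median -0.20). CTX_HCQ 2, the CTX_HCQ library highest in Isg15, Bst2 and Cxcl10, also had the highest macrophage and endothelial sums of its group (292 and 130). Over all tested members, however, CTX_HCQ 2 had the lowest median level of its group (-0.14, against -0.06 and 0.05). It also held the lowest level of all libraries for 8 members. CTX 1, whose median member level lay within the Control range, had the highest endothelial sum of all (138). The 16 lymphocyte markers summed to 14 to 27, 12.1 to 18.4 and 12.5 to 18.9, and 8 dendritic cell markers other than Bst2 to 5.42 to 6.55, 4.62 to 5.27 and 5.11 to 10.4. None of the markers in these lists was at 0 in all libraries. The part of these cells, of gene length and of the mitochondrial share in the members' differences was not tested.

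The filter on low values bears on these counts, since a member seen only where it is high had to differ. Oas2 and Oasl1 passed with 3 libraries at 1 FPKM or more, and Ifit2, Rsad2 and Cxcl10 with 4, while Mx2 failed with 2. Without the filter all 38 members could be counted: 29 were higher in CTX than in Control (median log2 0.31), 8 were higher in CTX_HCQ than in CTX (median -0.16), and 24 were higher in CTX_HCQ than in Control (median 0.06), with 0 called in each and 8, 1 and 2 at an unadjusted p under 0.05, against 5.80%, 5.21% and 2.82% of the 32879 genes of that fit. Of the untested genes, Mx2, an interferon-inducible GTPase, held 0.326, 0.417 and 0.353 FPKM in Control, 0.576, 0.651 and 1.15 in CTX, and 0.434, 0.871 and 1.08 in CTX_HCQ. Both treated groups lay above Control for Mx2, with 20 to 68 reads a library.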

How the data were processed

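The authors deposited FPKM per gene and library. Tools named in the submitters' processing notes are DESeq2 1.20.0, featureCounts 1.5.0-p3, HISAT2 2.0.5 and fastp 0.23.2, and the build is GRCm39; their roles, the filters and the strandedness are not given in the sources used here. Symbols and exon lengths came from an annotation of another build (GENCODE M21, GRCm38), and promoters from RefSeq GRCm38.p6. With these lengths, or for 853 genes a searched length, the FPKM of all 14431 tested genes were whole reads within 0.02, which gave the depth.

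Genes with at least 1 FPKM in 3 or more libraries entered limma 3.58.1 (R 4.3.3) on log2(FPKM + 1), 1 mean per group over all 9 libraries, with a variance trend and Benjamini-Hochberg adjustment per comparison. Tests are two-sided. Scripts were tested on simulated data. Replicates differed by more than sampling noise (chi-square per degree of freedom 13.9 to 142), so none was merged.

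Members and lists were chosen with earlier results of these data known. Values in every library are given for the 12 members of smallest p and the most abundant member of each role; pathway genes were named from fixed lists or for the smallest p. Mx2 and Ifnb1, Ifng and Ifnl3 were added after their values were seen. Alternatives covered pseudocount, filter, scaling, library weights, samples in the fit, voom, a replicate block, gene length and each library left out.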

Additional observations from a re-analysis of the deposited data

How the results depend on the processing

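For CTX vs Control, the median of 0.34 stayed above 0 under all 21 alternatives, and 25 to 28 of 34 members were higher in those that tested all 34, with up to 4 members of other sign (without CTX 3). No member was called except with library weights, where 3 were (Isg15, log2 1.04, adjusted p 0.0394; Ifit1, 1.03, 0.0369; Gbp3, 0.77, 0.0498) among 648 genes called. Library weights also called 1 gene for CTX_HCQ vs CTX and 1 for CTX_HCQ vs Control, where they turned the members' median to -0.007. With 1 library left out at a time, 0 to 13 genes were called for CTX vs Control (13 without Control 1) and 0 to 10 for CTX_HCQ vs CTX (10 without Control 1), none of them a member. The count of members higher in CTX_HCQ than in CTX, 5 of 34, ran from 2 (without CTX_HCQ 3) to 12 (without CTX 2), with 8 without CTX_HCQ 2, 8 after scaling to recovered reads, and 1 of 12 at a mean FPKM of at least 5. The median for CTX vs Control was 0.178 with library weights, 0.222 without Control 1, 0.228 without CTX 2 and 0.233 without CTX 3, and that for CTX_HCQ vs CTX was -0.096 without CTX 2; the cause was not tested. With the replicate number as a block, the medians were 0.341, -0.196 and 0.061, and 0 members were called. Deviations from the group means correlated between -0.457 and 0.135 in same-numbered libraries. With 3 libraries per group this cannot decide whether a replicate number marks a shared animal, day or batch, and no label says so. For CTX vs Control, the 0 calls came with 8 members at an unadjusted p under 0.05 in limma, against 7.80% of tested genes. In voom there were 7, against 7.91% (voom: 0 called). Low members rest on few reads (Cxcl10 from 12, Ifit3b from 18).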
